A study of Mus musculus with 9 samples.

Results

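Keratins, cell junction proteins and epithelial lineage regulators were examined in tumours of 3 mouse breast cancer models, HR1, LM1 and LM9. A list of 48 genes was taken by symbol: simple, basal and stress keratins, adhesion molecules, tight junction and desmosome genes, epithelial transcription and splicing factors, mammary lineage factors, polarity genes, surface proteases with their inhibitors, and surface or secreted lineage markers. Of these, 30 were among the 14108 genes with counts, and the other 18 (*Krt7*, *Krt8*, *Krt15*, *Cldn3*, *Cldn4*, *Cldn7*, *Ocln*, *Tjp3*, *Marveld2*, *Dsg2*, *Dsc2*, *Esrp1*, *Esrp2*, *Ovol1*, *Elf5*, *Rab25*, *Crb3* and *Prss8*) were not analysed here.

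The series asked what NFIB signalling does in metastatic colonization, by mRNA sequencing of 3 tumours per model. HR1 (LB-mHR1) is a non-metastatic mammary cancer line, 1 line established from a mammary tumour of a transgenic mouse that carried mutant PIK3CA H1047R under the CAG promoter. LM1 and LM9 are 1 line each, recovered from lung metastases of animals that bore HR1 tumours carrying a doxycycline-inducible *piggyBac* transposon system. In every group, 250000 cells in Matrigel and PBS were placed in the mammary fat pad of female NOD/SCID mice aged 4 to 8 weeks, tumours were taken before they reached 1500 mm3, and GFP+ cells were sorted. The 3 models thus share the PIK3CA allele, the host strain, the site and the sort. The LM lines differ from HR1 by the transposon system, its mobilisation with doxycycline in culture to mutagenize the cells, drug selection and passage through the lung. The sources used here do not say whether the 3 tumours of a model came from separate cultures, so p-values measure the spread between these tumours. Because the sorted cells were measured in bulk, fewer cells of a type and less RNA per cell cannot be told apart.

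Keratins are the intermediate filament proteins of epithelial cells: the simple keratins 7, 8, 18 and 19 fill luminal cells, and keratins 5, 14 and 15 fill the basal layer of the mammary duct. The filaments are tied to desmosomes, which rivet neighbouring cells together, while E-cadherin forms the adherens junction and claudins, occludin and the ZO scaffolds seal the tight junction. Transcription factors of the ZEB, SNAIL and TWIST families repress many of these genes when epithelial cells take on mesenchymal traits, and factors such as GRHL2, ELF3, GATA3, FOXA1 and p63 hold epithelial and mammary identity.

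Depth was even, with 32393958 to 46681945 counts per tumour. HR1 replicate 1 stood apart from the other HR1 tumours: across listed genes its log2 levels correlated with theirs at r = 0.897 to 0.906, against 0.971 between HR1 replicates 2 and 3 and 0.991 to 0.995 within each LM model. It also carried *Nfib* at 1340 CPM (counts scaled by TMM to a library of 1000000) where HR1 replicates 2 and 3 had 23.9 and 18.3 CPM and the LM tumours 421 to 791 CPM, so that it went against the other HR1 tumours. Its group follows its label here, and the counts of called genes, with many of the single values, are also given without it. Over the 30 genes the mean absolute log2 difference, on log2(CPM + 1), was 1.34 to 1.65 between HR1 replicate 1 and the other HR1 tumours, 0.80 between HR1 replicates 2 and 3, 0.18 to 0.28 among LM1 and 0.22 to 0.25 among LM9. HR1 replicate 1 lay outside the range of the other 8 tumours in 16 of the 30 genes (lowest in 10, highest in 6), or 53.3%, against 45.5% of all listed genes.

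Although the line is of mammary tumour origin, *Cdh1*, *Epcam* and *Krt18* were low in every tumour. Others of the 30 genes were not, and *Cd24a*, *Tjp1* and *Dsp* stayed above 10 CPM throughout. *Cdh1* (E-cadherin) was measured at 1.197, 0.6304 and 0.5404 CPM in HR1 replicates 1 to 3, 0.945, 0.657 and 0.864 CPM in LM1 and 0.687, 0.0916 and 0.383 CPM in LM9. *Epcam*, the surface glycoprotein by which epithelial cells are commonly recognised, was measured at 4.49, 1.58 and 0.437 CPM in HR1 replicates 1 to 3, 0.273, 0.204 and 0.0254 CPM in LM1 and 0.622, 0.687 and 0.698 CPM in LM9. *Krt18*, the partner of keratin 8, did not pass 2.48 CPM in any tumour. *Cdh1* rested on 4 to 45 reads per tumour and *Epcam* on 1 to 135. A level of 3 counts, taken as the floor, corresponds to 0.0643 to 0.0926 CPM before TMM scaling. With the scaling, 3 counts were 0.0997 CPM in HR1 replicate 1 (*Krt5*) and 0.0630 CPM in LM1 replicate 1 (*Foxa1*). These floors and the intervals given below cover counting error only.

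**Figure D1:**
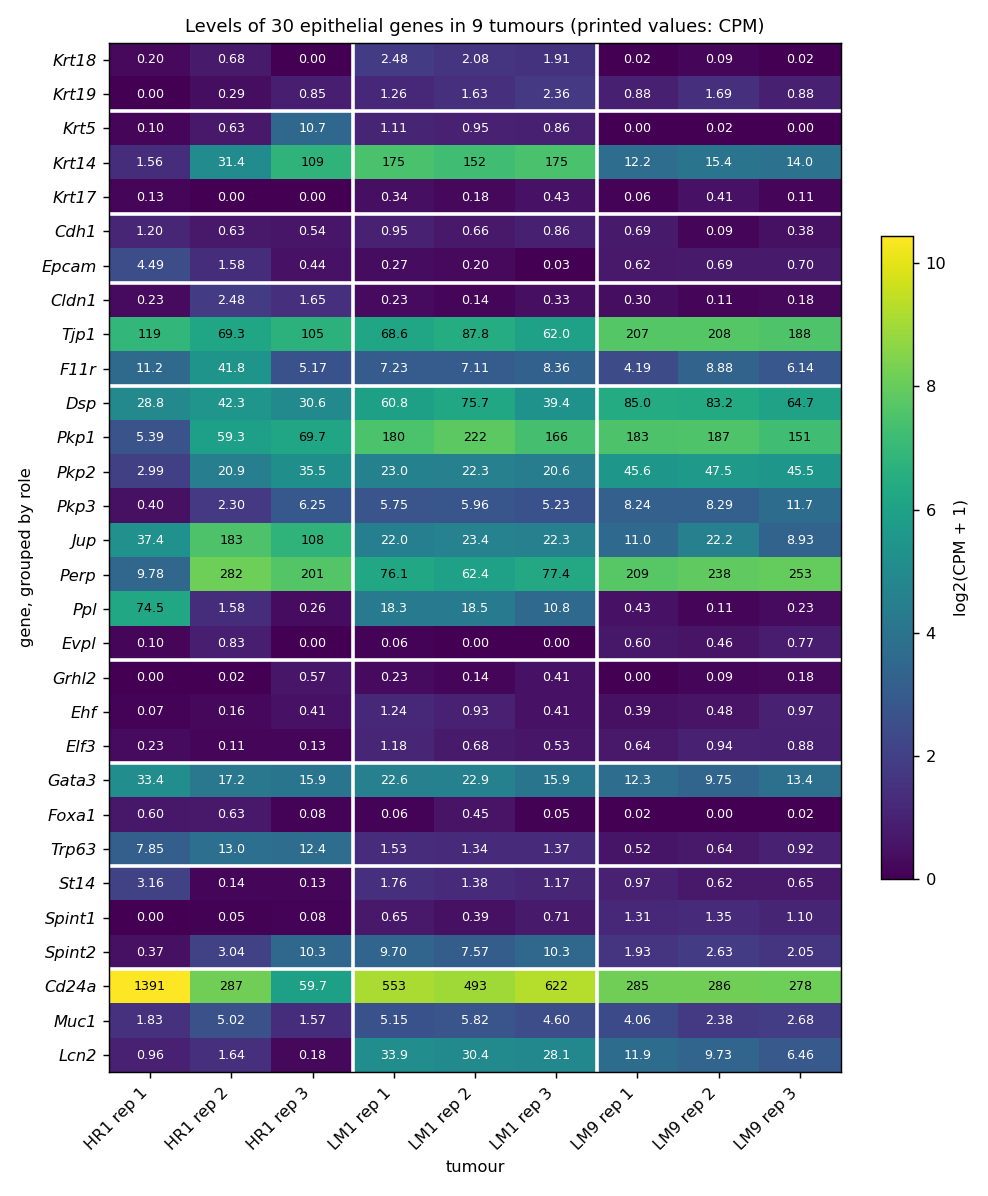
Level of each of the 30 genes (rows, grouped by role) in each of the 9 tumours (columns); colour is log2(CPM + 1) and the printed number is CPM. *Cd24a*, *Perp*, *Krt14*, *Pkp1*, *Tjp1* and *Jup* passed 100 CPM in some tumour, while 10 genes averaged under 1 CPM, and the HR1 replicate 1 column departs from its neighbours.

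The 30 genes covered a wide span. On average over 9 tumours, 12 genes were at 10 CPM or more and 10 were under 1 CPM, and 3 (*Cd24a*, *Tjp1* and *Dsp*) stayed above 10 CPM in every tumour. Divided by exon length, so that genes can be ranked against each other, 21 of 30 were below the median of listed genes, 16 were in the lowest 25% and 4 (*Cd24a*, *Perp*, *Krt14* and *Pkp1*) were in the highest 25%. *Cd24a*, which encodes a heavily glycosylated membrane anchor protein of immature epithelium, led with a mean of 183 CPM per kb over the 9 tumours. *Perp*, a desmosomal tetraspan protein, followed at 80.2 CPM per kb and *Krt14* at 43.3 CPM per kb. The order differed by model: *Perp* led in LM9, at 119.5 CPM per kb against 109.7 CPM per kb for *Cd24a*, and *Krt14* was above *Perp* in LM1 (95.1 and 36.9 CPM per kb) and far below it in LM9, at 7.89 CPM per kb. At the other end, *Grhl2* averaged 0.0211 CPM per kb, *Cdh1* 0.146 CPM per kb and *Epcam* 0.456 CPM per kb.

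The 10 repressors of epithelial genes that were read beside them were all measured. *Twist1* averaged 273 CPM per kb, *Snai1* 72.2 CPM per kb, *Zeb1* 11.1 CPM per kb and the lowest of the 10, *Twist2*, 2.46 CPM per kb. *Cdh1* and *Grhl2*, among other epithelial genes, lay below all 10 repressors on the per-kb scale in each of the 3 models, and *Epcam* did so in HR1 and LM1, while in LM9 it averaged 0.305 CPM per kb against 0.193 CPM per kb for *Twist2*.

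**Figure D2:**
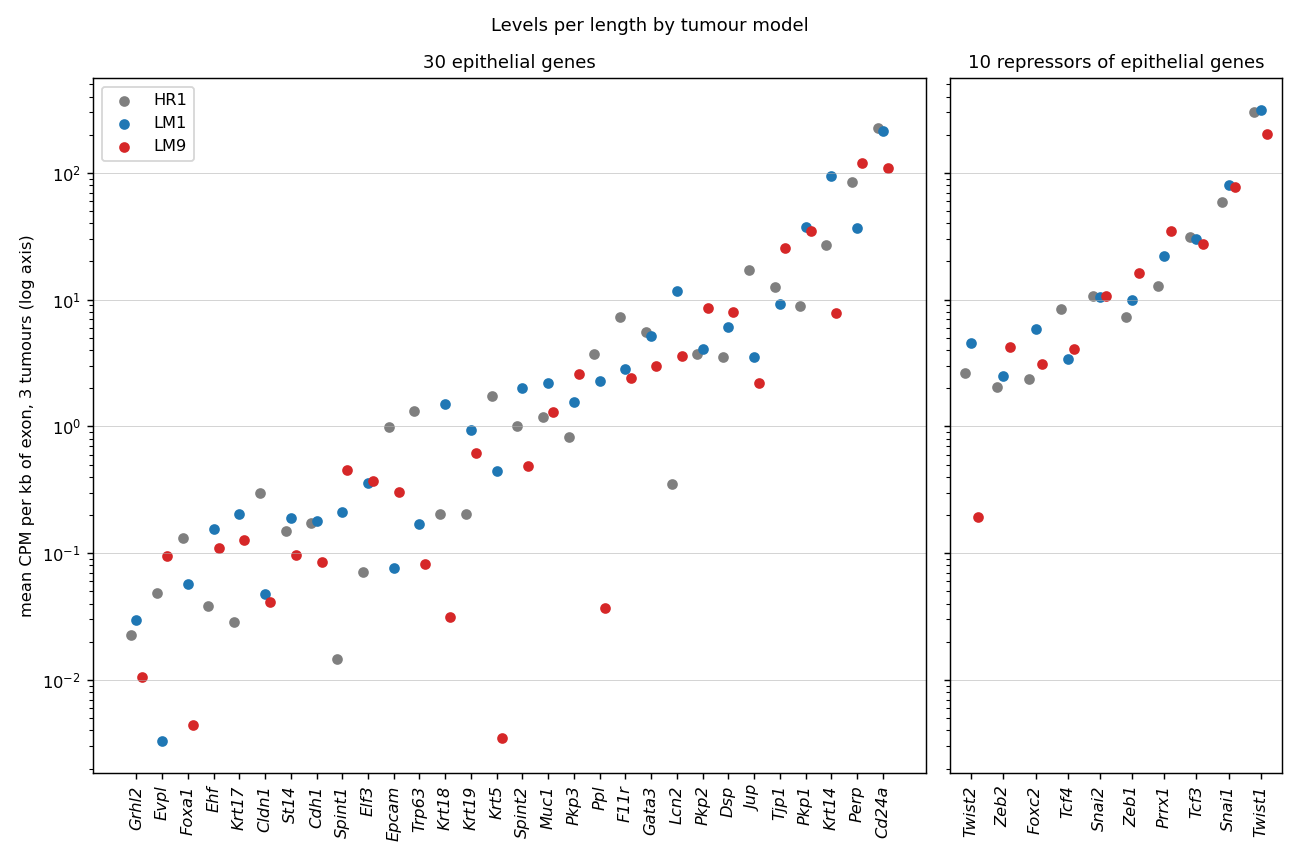
Mean level per kb of exon (log axis) of the 30 epithelial genes, left, and the 10 repressors, right, in HR1, LM1 and LM9 (each point the mean of 3 tumours). The epithelial genes run from 0.0211 CPM per kb for *Grhl2* to 183 CPM per kb for *Cd24a* over the 9 tumours, and the repressors from 2.46 to 273 CPM per kb.

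ZEB and SNAIL proteins bind the E-box CAGGTG, which was searched on both strands. Promoter windows of 250 bases before the start site were available from RefSeq (GRCm38.p6) for 27 of the 48 genes, 33 windows in all, since some genes have more than 1. At least 1 window with the E-box was held by 17 of these 27 genes, or 63.0%, and by 19.4% of 27025 genes. Counted by window, the E-box stood in 19 of 33, or 57.6%, and in 17.2% of all 32851 windows of that length. Of the 16 analysed genes with a window, 8 held it, and *Krt14*, *Cldn1*, *Tjp1*, *Dsp*, *Jup*, *Gata3*, *Spint1* and *Lcn2* did not. The NFI recognition word TTGGCA, searched on both strands, stood in 4 of the 33 windows, or 12.1%, against 12.3% of all windows. A match is a description of the letters and not evidence of binding.

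The windows of 4 genes that hold an E-box and whose levels are described below are shown to let the E-boxes be seen in place. Capitals mark each E-box on either strand, and each window is written 5′ to 3′ on the strand of its gene. The *Epcam* window lies at chr17:87635729-87635978 on the plus strand and holds 2 E-boxes, the *Krt18* window at chr15:102027966-102028215 on the plus strand holds 1, the *Krt5* window at chr15:101712906-101713155 on the minus strand holds 1, and the *Spint2* window at chr7:29281978-29282227 on the minus strand holds 3. Each ends at the base before the transcript start of the RefSeq promoter table, and the *Spint2* window overlaps the start of a longer model of that gene.
Epcam: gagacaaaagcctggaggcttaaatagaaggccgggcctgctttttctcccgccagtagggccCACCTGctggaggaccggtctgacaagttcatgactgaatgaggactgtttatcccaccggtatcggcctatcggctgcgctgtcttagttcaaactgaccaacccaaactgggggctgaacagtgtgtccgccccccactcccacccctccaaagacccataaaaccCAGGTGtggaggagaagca
Krt18: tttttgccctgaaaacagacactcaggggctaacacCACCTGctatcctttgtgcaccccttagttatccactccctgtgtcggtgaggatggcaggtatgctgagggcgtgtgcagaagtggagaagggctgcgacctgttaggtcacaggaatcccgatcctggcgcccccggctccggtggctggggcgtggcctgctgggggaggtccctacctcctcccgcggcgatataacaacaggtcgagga
Krt5: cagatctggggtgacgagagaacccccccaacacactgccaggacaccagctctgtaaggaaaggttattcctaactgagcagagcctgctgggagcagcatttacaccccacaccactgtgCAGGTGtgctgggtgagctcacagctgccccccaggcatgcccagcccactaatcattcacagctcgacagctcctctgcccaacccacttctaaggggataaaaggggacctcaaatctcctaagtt
Spint2: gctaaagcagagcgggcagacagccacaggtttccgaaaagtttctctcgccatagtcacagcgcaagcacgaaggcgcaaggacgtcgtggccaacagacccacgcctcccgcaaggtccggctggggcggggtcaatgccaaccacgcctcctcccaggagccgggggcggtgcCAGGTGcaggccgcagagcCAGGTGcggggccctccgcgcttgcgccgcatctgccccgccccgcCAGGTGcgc

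To ask how the metastasis-derived tumours differed from the parental ones, the counts of all 3 models were fitted together and the 6 LM tumours were compared with the 3 HR1 tumours, and then each LM model by itself. A gene is said to have risen or fallen where the adjusted p of edgeR's quasi-likelihood test (Benjamini-Hochberg over 14086 tested genes) was under 0.05. A change given for LM1 and LM9 is that of the 6 LM tumours against HR1, and need not hold in each model. Log2 fold changes are given ± an approximate standard error, the absolute change divided by the square root of the test's F statistic. The comparisons of LM1 and of LM9 with HR1 share the HR1 tumours. Of the 30 genes, 5 rose and 7 fell in LM1 and LM9 against HR1, where 43.6% of all tested genes were called (19.9% higher and 23.6% lower). In LM1 against HR1, 5 rose and 4 fell, where 35.5% of all genes were called (16.7% higher and 18.7% lower). In LM9 against HR1 5 rose and 7 fell, where 42.3% were called (20.4% higher and 21.9% lower). The median log2 fold change of the 30 genes was -0.07 for LM1 and LM9, 0.25 for LM1 and -0.75 for LM9, while that of all tested genes lay between -0.05 and -0.04. These medians of the 30 genes were 0.07, 0.48 and -0.08 without HR1 replicate 1, so that the LM9 median rested largely on that tumour.

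Without HR1 replicate 1, 8 rose and 8 fell in LM1 and LM9 together, where 56.0% of all genes were called (27.5% higher and 28.5% lower). In LM1 11 rose and 7 fell, where 52.8% were called (26.9% higher and 26.0% lower), and in LM9 10 rose and 8 fell, where 55.7% were called (27.9% higher and 27.8% lower). The share of the 30 genes called was near that of all genes in these comparisons, below it with the 3 HR1 tumours, and above it in LM1 and in LM9 singly without replicate 1. In LM1 and LM9 against HR1, 11 genes were called with and without it, *Ppl* was lost and *Krt17*, *Tjp1*, *F11r*, *Perp* and *St14* were gained. All 3 HR1 tumours lay apart from all 6 LM tumours in 7 genes, 5 higher in LM (*Krt19*, *Pkp1*, *Elf3*, *Spint1* and *Lcn2*) and 2 lower (*Jup* and *Trp63*), where 29.9% of all genes had groups that did not overlap (15.6% higher and 14.3% lower).

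**Figure D3:**
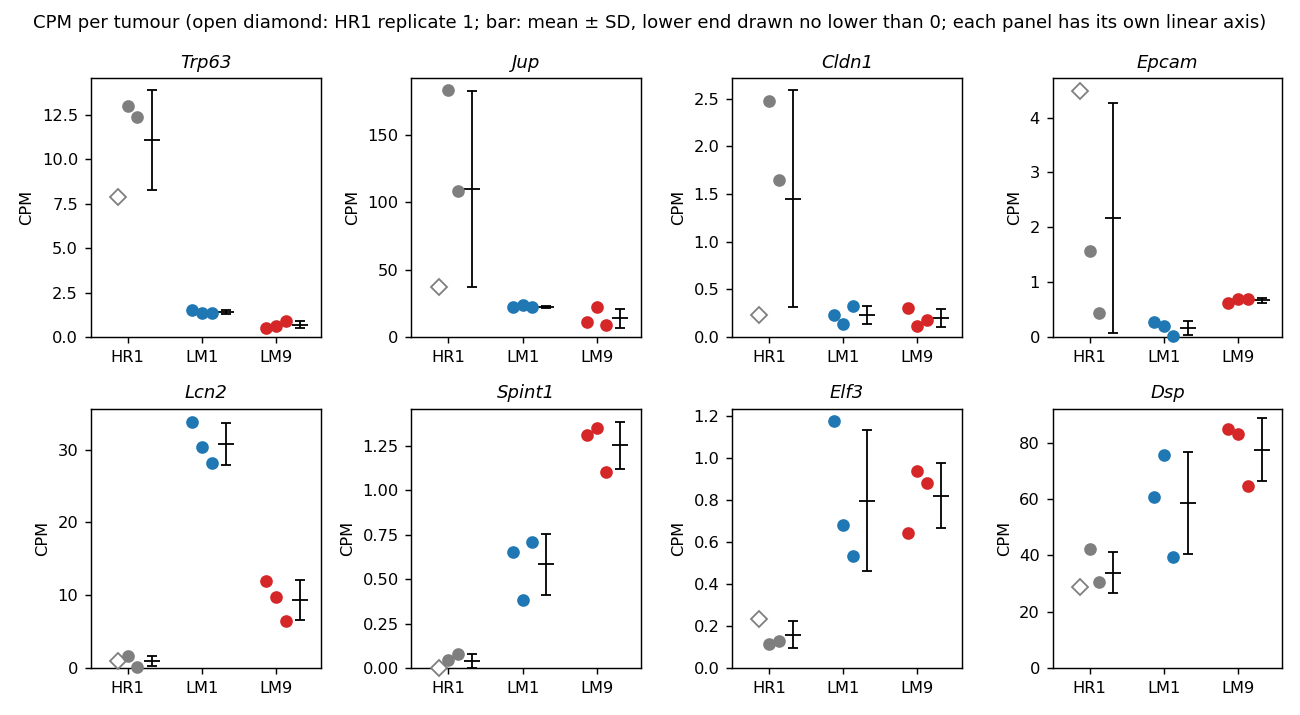
CPM of 8 genes in each tumour (points; open diamond, HR1 replicate 1) with the mean and SD of each model at its right (n = 3). *Trp63* and *Jup* are lower in all 6 LM tumours than in any HR1 tumour, *Lcn2*, *Spint1* and *Elf3* are higher in all 6, and *Epcam*, *Cldn1* and *Dsp* overlap.

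Of 3 mammary lineage factors, *Trp63* and *Foxa1* fell in LM1 and LM9 together and none rose. By itself, LM1 was not called for *Foxa1*. *Trp63* encodes p63, the master regulator of the basal layer. It was measured at 7.85, 12.99 and 12.4 CPM in HR1 replicates 1 to 3, 1.53, 1.34 and 1.37 CPM in LM1 and 0.515, 0.641 and 0.923 CPM in LM9. The groups did not overlap, and LM9 was also below LM1. Against HR1 the log2 fold change was -3.48 ± 0.26 (adjusted p = 5.5e-05) in LM1 and LM9, an 11.2-fold lower level, and -3.67 ± 0.22 (adjusted p = 1.7e-06) without HR1 replicate 1. Taken singly, LM1 gave -2.97 (adjusted p = 4.4e-04) and LM9 -3.99 (adjusted p = 1.1e-04).

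*Foxa1*, the pioneer factor of luminal cells, was at very low levels, 0.598, 0.6304 and 0.0772 CPM in HR1 replicates 1 to 3, 0.06301, 0.453 and 0.0508 CPM in LM1 and 0.0215, 0 and 0.0225 CPM in LM9. The 3 LM9 tumours held 2 reads in all and lay below every HR1 tumour, while LM1 overlapped HR1. HR1 was 29.1-fold above LM9 by counts (95% exact counting interval 7.64 to 247), and the fitted difference of LM9 from HR1 was called (adjusted p = 0.021, 0.023 without HR1 replicate 1). That call was lost without HR1 replicate 2 or any of the LM9 tumours, with an adjusted p of up to 0.072, and the call in LM1 and LM9 together without HR1 replicate 2, LM1 replicate 1 or 3 or any LM9 tumour, with an adjusted p of up to 0.11. In LM1 the log2 fold change was -1.18 ± 0.99 (adjusted p = 0.38). *Gata3*, the regulator of luminal differentiation, was moderately high throughout, at 33.4, 17.2 and 15.9 CPM in HR1 replicates 1 to 3, 22.6, 22.9 and 15.9 CPM in LM1 and 12.3, 9.75 and 13.4 CPM in LM9. LM9 lay below all HR1 tumours, with a log2 fold change of -0.91 ± 0.31 (adjusted p = 0.0409), but without HR1 replicate 1, its highest tumour, this was -0.48 ± 0.20 (adjusted p = 0.066) and not called, nor was it called without LM1 replicate 1 or 2 or any LM9 tumour (adjusted p of up to 0.13). LM1 and HR1 overlapped for *Gata3*, whose exons overlap those of another gene model on the same strand.

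Of 5 keratins, *Krt5* fell in LM1 and LM9 together but was not called in LM1 by itself, and none rose. In several keratins the HR1 tumours differed widely among themselves. *Krt14*, a type I keratin of basal cells, was measured at 1.56, 31.4 and 109 CPM in HR1 replicates 1 to 3, 175, 152 and 175 CPM in LM1 and 12.2, 15.4 and 13.997 CPM in LM9. HR1 spread widely, LM1 lay above all of HR1 and LM9 lay inside the HR1 range. With the 3 HR1 tumours neither model's change was called, at 1.82 ± 0.99 (adjusted p = 0.18) for LM1 and -1.77 ± 0.99 (adjusted p = 0.18) for LM9. Without HR1 replicate 1 both were, in opposite directions, at 1.26 ± 0.42 (adjusted p = 0.034) for LM1 and -2.34 ± 0.41 (adjusted p = 0.0016) for LM9. HR1 replicate 3, the highest of HR1, mattered as much: without it LM1 gave 3.33 (adjusted p = 0.032) and LM9 -0.26 (adjusted p = 0.82), which was not called. Of the 50-base windows of *Krt14* transcripts, 13.9% also occur in other genes, mainly *Krt16* and *Krt17*.

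*Krt5*, the type II partner of keratin 14, was measured at 0.0997, 0.6304 and 10.7 CPM in HR1 replicates 1 to 3, 1.11, 0.951 and 0.864 CPM in LM1 and 0, 0.0229 and 0 CPM in LM9. HR1 replicate 3 was far above the rest, and the 3 LM9 tumours held 1 read in all. By counts HR1 exceeded LM9 529-fold (95% exact counting interval 94.4 to 20935), and the fitted difference was called with and without HR1 replicate 1 (adjusted p = 0.0094 and 7.3e-04). That ratio rested on HR1 replicate 3: without it HR1 exceeded LM9 56.1-fold (95% exact counting interval 9.34 to 2285), the LM9 difference was still called (adjusted p = 0.0077), and that of LM1 and LM9 together was not (adjusted p = 0.081). LM1 lay inside the HR1 range, at -1.96 ± 1.26 (adjusted p = 0.25) with the 3 HR1 tumours and -2.52 ± 0.87 (adjusted p = 0.037) without replicate 1. Without HR1 replicate 3 the direction turned in LM1, to a log2 fold change of 1.37 that was not called. For *Krt5*, 8.52% of 50-base windows are shared, mainly with *Krt6a*, *Gm5478* and *Krt6b*, and a gene model on the opposite strand overlaps it.

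The simple keratins stayed low. *Krt18* was measured at 0.199, 0.675 and 0 CPM in HR1 replicates 1 to 3, 2.48, 2.08 and 1.91 CPM in LM1 and 0.0215, 0.0916 and 0.0225 CPM in LM9. It was highest in LM1, where all 3 tumours exceeded all HR1 tumours, while LM9 overlapped HR1. The LM1 change was 2.85 ± 0.99 (adjusted p = 0.0523), which missed the threshold, and 2.64 ± 0.97 (adjusted p = 0.04402) without HR1 replicate 1. It was 4.499 (adjusted p = 0.014) without HR1 replicate 2 and 2.26 (adjusted p = 0.027) without HR1 replicate 3, so that its size depended on the HR1 tumours used. *Krt19*, the smallest keratin, was at 0, 0.293 and 0.849 CPM in HR1 replicates 1 to 3, 1.26, 1.63 and 2.36 CPM in LM1 and 0.8801, 1.69 and 0.878 CPM in LM9. All 6 LM tumours were above all HR1 tumours, yet the log2 fold change of 1.87 ± 0.86 (adjusted p = 0.11) was not called, nor was it without HR1 replicate 1, at 1.32 ± 0.52 (adjusted p = 0.0518), although LM1 by itself was then called, at 1.63 (adjusted p = 0.034). Without HR1 replicate 3 LM1 and LM9 together were called, at 3.13 (adjusted p = 0.025). *Krt17*, a keratin induced by stress, did not pass 0.432 CPM in any tumour. Its log2 fold change of 2.62 ± 1.14 (adjusted p = 0.094) was not called with the 3 HR1 tumours, where HR1 replicate 1, at 0.133 CPM, lay above 2 of the LM9 tumours. HR1 replicates 2 and 3 held no read of it, and against these the LM tumours were at least 6.996-fold higher (3 counts over the group as the floor).

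Of the 2 adhesion molecules, *Epcam* fell in LM1 and LM9 together but was not called in LM9 by itself, and *Cdh1* was not called. The *Epcam* levels given above were highest in HR1 replicate 1 and lowest in LM1, with LM9 between them and overlapping HR1. Its log2 fold change was -2.66 ± 0.70 (adjusted p = 0.015) in LM1 and LM9, -3.64 ± 0.94 (adjusted p = 0.016) in LM1 and -1.69 ± 0.84 (adjusted p = 0.14) in LM9. Without HR1 replicate 1 the first was -1.56 ± 0.59 (adjusted p = 0.0463), and LM1 gave -2.54 (adjusted p = 0.015), a 5.802-fold lower level in place of 12.5-fold lower. The LM1 call was lost without LM1 replicate 2 (adjusted p = 0.0572), and LM9 was called without HR1 replicate 3, at -2.17 (adjusted p = 0.035). *Cdh1* gave a log2 fold change of -0.47 ± 0.55 (adjusted p = 0.52), or -0.04 ± 0.57 (adjusted p = 0.95) without HR1 replicate 1, and its highest LM tumour was at 0.945 CPM.

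Of 3 tight junction genes, *Cldn1* fell in LM1 and LM9, and *Tjp1* rose in LM9. *Cldn1* encodes claudin-1, a strand-forming protein of the tight junction. It was measured at 0.233, 2.48 and 1.65 CPM in HR1 replicates 1 to 3, 0.231, 0.136 and 0.3302 CPM in LM1 and 0.301, 0.114 and 0.18002 CPM in LM9. HR1 replicate 1 was as low as the LM tumours, and the other HR1 tumours were above all 6 of them. With all tumours the log2 fold change was -2.75 ± 0.64 (adjusted p = 0.0087) and -3.24 ± 0.42 (adjusted p = 1.7e-04) without replicate 1, or -2.13 (adjusted p = 0.040) without replicate 2, with LM1 at -2.64 (adjusted p = 0.033) and LM9 at -2.86 (adjusted p = 0.022). Taken singly, the LM1 call was lost without HR1 replicate 2 or 3, any LM1 tumour or LM9 replicate 3 (adjusted p of up to 0.11), and the LM9 call without HR1 replicate 2 or LM9 replicate 2 or 3 (adjusted p of up to 0.078).

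*Tjp1*, the ZO-1 scaffold that links junction proteins to actin, rose in LM9. Its levels were 119, 69.3 and 105 CPM in HR1 replicates 1 to 3, 68.6, 87.8 and 62.03 CPM in LM1 and 207, 208 and 188 CPM in LM9. All LM9 tumours exceeded every other tumour, and LM1 overlapped HR1. Its log2 fold change was 1.05 ± 0.21 (adjusted p = 0.0053) in LM9, a 2.06-fold higher level, with 1.21 (adjusted p = 8.0e-04) without HR1 replicate 1, and -0.42 ± 0.21 (adjusted p = 0.15) in LM1. *F11r*, which encodes the junctional adhesion molecule JAM-A, was at 11.2, 41.8 and 5.17 CPM in HR1 replicates 1 to 3, 7.23, 7.11 and 8.36 CPM in LM1 and 4.19, 8.88 and 6.14 CPM in LM9. HR1 replicate 2 stood far above all other tumours, and also had the highest summed leukocyte marker level of the 9, 1121 CPM, whose part in the result was not tested. Its log2 fold change was -1.48 ± 0.54 (adjusted p = 0.0533), and -1.75 ± 0.57 (adjusted p = 0.029) without HR1 replicate 1 or -1.93 (adjusted p = 0.0088) without HR1 replicate 3. Without HR1 replicate 2 it was -0.23 and not called.

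Of the 8 desmosome and envelope genes, 2 rose (*Dsp* and *Pkp1*) and 2 fell (*Jup* and *Ppl*) in LM1 and LM9 together. By itself, LM1 was not called for *Ppl* and LM9 was not called for *Pkp1*. *Dsp* encodes desmoplakin, which anchors keratin filaments. It was measured at 28.8, 42.3 and 30.6 CPM in HR1 replicates 1 to 3, 60.8, 75.7 and 39.4 CPM in LM1 and 84.98, 83.2 and 64.7 CPM in LM9. LM9 lay above all HR1 tumours and LM1 overlapped by 1 tumour. Its log2 fold change was 0.99 ± 0.23 (adjusted p = 0.0085), a 1.99-fold higher level, with 0.79 (adjusted p = 0.040) in LM1 and 1.19 (adjusted p = 0.0067) in LM9. Without HR1 replicate 1 LM1 missed the threshold, at 0.69 (adjusted p = 0.05104), as it did without HR1 replicate 3, LM1 replicate 1 or 2 or any LM9 tumour (adjusted p of up to 0.15).

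*Pkp1* encodes plakophilin-1, an armadillo protein of the desmosomal plaque. Its levels were 5.39, 59.3 and 69.7 CPM in HR1 replicates 1 to 3, 179.9, 222 and 166 CPM in LM1 and 183, 187 and 151 CPM in LM9. All LM tumours were above all HR1 tumours, by more than the spread within LM1 or LM9. A log2 fold change of 2.02 ± 0.65 (adjusted p = 0.033) resulted, and 1.497 ± 0.16 (adjusted p = 4.3e-05) without HR1 replicate 1, its lowest tumour. For LM1 it was 2.08 (adjusted p = 0.0473) and for LM9 1.95 (adjusted p = 0.0504), just above the threshold, which LM9 passed without HR1 replicate 1, at 1.43 (adjusted p = 1.0e-04), and without HR1 replicate 3, at 2.42 (adjusted p = 0.0433). The calls in LM1 and LM9 together and in LM1 were both lost without HR1 replicate 2 or any of the LM tumours, with adjusted p of up to 0.066 and 0.12. The other plakophilins were not called with the 3 HR1 tumours: in LM9 *Pkp2* gave 1.22 (adjusted p = 0.15) and *Pkp3* 1.65 (adjusted p = 0.096). Both were called in LM9 without HR1 replicate 1, at 0.72 (adjusted p = 0.013) and 1.15 (adjusted p = 0.026), and without HR1 replicate 3, at 1.94 (adjusted p = 0.0434) and 2.78 (adjusted p = 0.010).

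*Jup* went the other way. It encodes plakoglobin, the catenin shared by desmosomes and adherens junctions. Its levels were 37.4, 183 and 108 CPM in HR1 replicates 1 to 3, 21.97, 23.4 and 22.3 CPM in LM1 and 10.99, 22.2 and 8.93 CPM in LM9. Every HR1 tumour was above every LM tumour. This gave a log2 fold change of -2.62 ± 0.43 (adjusted p = 0.0018), a 6.17-fold lower level, and -3.03 ± 0.29 (adjusted p = 5.3e-05) without HR1 replicate 1. It was -2.04 (adjusted p = 0.0067) without HR1 replicate 2, its highest tumour. LM1 gave -2.28 (adjusted p = 0.012) and LM9 -2.97 (adjusted p = 0.0038). Desmoplakin, plakophilin-1 and plakoglobin are neighbours in the desmosomal plaque.

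The values of *Ppl* and *Perp* depended on HR1 replicate 1. *Ppl* encodes periplakin, which links the cornified envelope to desmosomes. It was at 74.5, 1.58 and 0.257 CPM in HR1 replicates 1 to 3, 18.3, 18.5 and 10.8 CPM in LM1 and 0.429, 0.114 and 0.225 CPM in LM9. HR1 replicate 1 was the highest of all 9 tumours, HR1 replicates 2 and 3 were near LM9, and LM1 lay between. With the 3 HR1 tumours, LM1 and LM9 together gave -3.64 ± 1.26 (adjusted p = 0.0438). Without replicate 1 this turned to 1.13 ± 0.63 (adjusted p = 0.15), and LM1 by itself to 4.10 ± 0.71 (adjusted p = 0.0014) from -0.68 ± 1.43 (adjusted p = 0.74). In LM9 *Ppl* was at -6.61 ± 1.89 (adjusted p = 0.022), and -1.83 ± 0.72 (adjusted p = 0.0575) without replicate 1. The call in LM1 and LM9 together was also lost without any LM tumour, and that in LM9 without any LM9 tumour (adjusted p of up to 0.097 and 0.078).

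*Perp* was at 9.78, 282 and 201 CPM in HR1 replicates 1 to 3, 76.1, 62.4 and 77.4 CPM in LM1 and 209, 238 and 253 CPM in LM9. HR1 replicate 1 was lowest of all, and the other HR1 tumours were near LM9 and above LM1. LM1 gave -1.19 ± 0.83 (adjusted p = 0.29) with the 3 HR1 tumours and -1.74 ± 0.16 (adjusted p = 3.1e-05) without replicate 1, where LM9 gave -0.05 ± 0.17 (adjusted p = 0.83). *Evpl*, the envoplakin partner of periplakin, did not pass 0.833 CPM. It had 3 reads in the 3 LM1 tumours and 82 in the 3 LM9 tumours. With the 3 HR1 tumours neither model was called against HR1 for *Evpl*. LM1 was called lower without HR1 replicate 1, and without HR1 replicate 3, at -4.25 (adjusted p = 0.026). Over the tumours left out, the log2 fold change of *Evpl* ran from -6.74 to -0.93 in LM1 and from 0.34 to 3.66 in LM9.

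**Figure D4:**
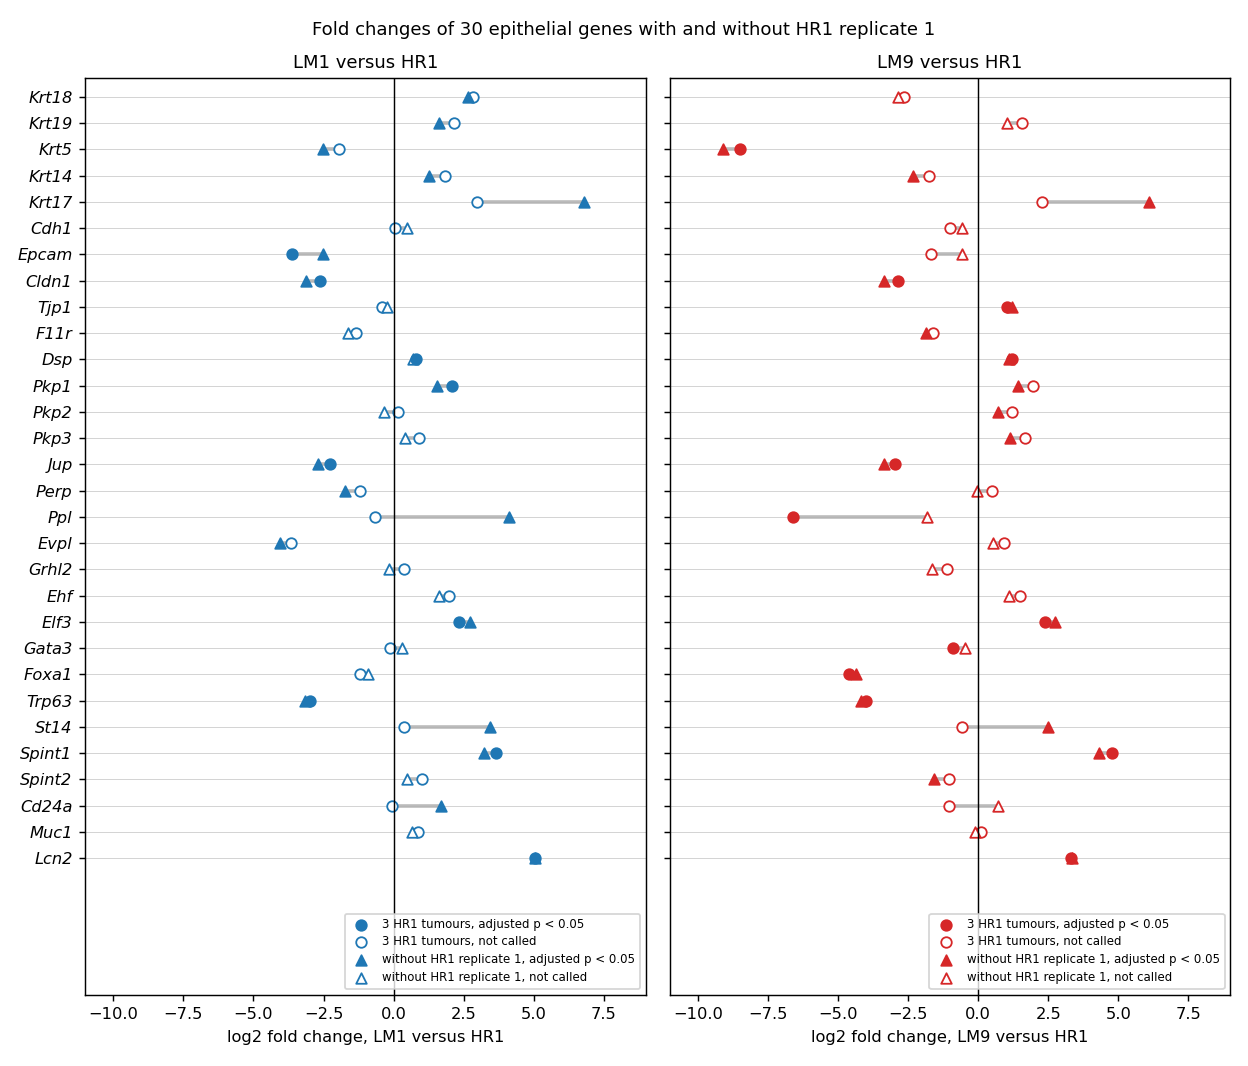
Log2 fold change of each of the 30 genes in LM1 (left) and LM9 (right) against HR1, with all 3 HR1 tumours (circles) and without HR1 replicate 1 (triangles); filled, adjusted p under 0.05. The long lines at *Ppl*, *St14*, *Krt17* and *Cd24a* mark the genes whose value rests on that tumour, while *Trp63*, *Jup*, *Cldn1*, *Elf3*, *Spint1* and *Lcn2* stay on 1 side of 0 and filled.

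Of 3 epithelial transcription factors, *Elf3* rose in LM1 and LM9 and *Ehf* and *Grhl2* were not called. *Elf3*, an ETS factor of epithelial differentiation, was at 0.233, 0.113 and 0.129 CPM in HR1 replicates 1 to 3, 1.18, 0.6795 and 0.533 CPM in LM1 and 0.644, 0.938 and 0.878 CPM in LM9. All LM tumours were above all HR1 tumours, at levels of 5 to 7 reads in HR1 and 21 to 56 in LM. The log2 fold change was 2.36 ± 0.47 (adjusted p = 0.0044), with 2.34 (adjusted p = 0.0082) in LM1 and 2.38 (adjusted p = 0.0066) in LM9, and 2.73 ± 0.54 (adjusted p = 0.0020) without HR1 replicate 1. *Ehf*, a related ETS factor, gave 1.74 ± 0.66 (adjusted p = 0.0599) and overlapped HR1 by 1 LM1 and 1 LM9 tumour. It was called without HR1 replicate 3, at 2.61 (adjusted p = 0.022). *Grhl2*, a direct activator of E-cadherin and claudin genes, held 0 to 22 reads per tumour and gave -0.38 ± 1.14 (adjusted p = 0.81).

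Of 3 surface proteases and inhibitors, *Spint1* rose in LM1 and LM9 and *St14* and *Spint2* were not called. *Spint1* encodes HAI-1, the membrane inhibitor of matriptase. It was at 0, 0.04503 and 0.0772 CPM in HR1 replicates 1 to 3, 0.651, 0.385 and 0.711 CPM in LM1 and 1.31, 1.35 and 1.103 CPM in LM9. HR1 held 0, 2 and 3 reads, LM1 was higher in every tumour and LM9 higher still. The log2 fold change was 4.22 ± 0.65 (adjusted p = 0.0013), and 3.77 ± 0.56 (adjusted p = 3.6e-04) without HR1 replicate 1 or 4.89 (adjusted p = 0.0018) without HR1 replicate 3, with LM1 at 3.67 (adjusted p = 0.0042) and LM9 at 4.77 (adjusted p = 0.0011).

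*St14*, matriptase itself, was at 3.16, 0.135 and 0.129 CPM in HR1 replicates 1 to 3, 1.76, 1.38 and 1.17 CPM in LM1 and 0.966, 0.618 and 0.653 CPM in LM9. HR1 replicate 1 was again the highest tumour, and the other HR1 tumours were the lowest. The change of -0.12 ± 0.90 (adjusted p = 0.93) became 2.95 ± 0.47 (adjusted p = 5.7e-04) without that tumour, and LM9 turned from -0.59 (adjusted p = 0.68) to 2.48 (adjusted p = 0.0022). *Spint2*, which encodes the related inhibitor HAI-2, was at 0.366, 3.04 and 10.3 CPM in HR1 replicates 1 to 3, 9.704, 7.57 and 10.3 CPM in LM1 and 1.93, 2.63 and 2.05 CPM in LM9. HR1 spread over nearly the whole range of the LM tumours. Neither model's change was called with the 3 HR1 tumours, at 1.01 (adjusted p = 0.38) for LM1 and -1.05 (adjusted p = 0.34) for LM9, and without HR1 replicate 1 LM9 was lower, at -1.59 (adjusted p = 0.011). Without HR1 replicate 3, the highest of HR1, LM9 turned to 0.35 (adjusted p = 0.69), which was not called, and LM1 was higher, at 2.41 (adjusted p = 0.034).

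Of 3 surface and secreted markers, *Lcn2* rose in LM1 and LM9. It encodes lipocalin-2, a siderophore-binding protein secreted by stressed epithelium and by neutrophils. It was at 0.964, 1.64 and 0.1801 CPM in HR1 replicates 1 to 3, 33.9, 30.4 and 28.1 CPM in LM1 and 11.9, 9.73 and 6.46 CPM in LM9. HR1 did not pass 1.64 CPM, LM9 lay between 6.46 and 11.9 CPM and LM1 was at 28.1 CPM or more. The log2 fold change was 4.18 ± 0.60 (adjusted p = 9.4e-04), with 5.04 (adjusted p = 8.5e-04) in LM1 and 3.32 (adjusted p = 0.0033) in LM9, and 4.19 ± 0.63 (adjusted p = 6.7e-04) without HR1 replicate 1. Without HR1 replicate 2, the highest of HR1, it was 4.93 (adjusted p = 0.0010). The neutrophil genes *S100a8* and *S100a9* did not pass 3.06 CPM in any tumour, and their log2 fold changes in LM1 and LM9 were -0.12 (adjusted p = 0.81) and -0.43 (adjusted p = 0.62). These genes were singled out after their values were seen, and which cells the *Lcn2* transcripts came from was not tested.

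*Cd24a* was at 1391, 287 and 59.7 CPM in HR1 replicates 1 to 3, 553, 493 and 622 CPM in LM1 and 285, 286 and 278 CPM in LM9. HR1 replicate 1 was the highest tumour of all 9 and HR1 replicate 3 the lowest, while each LM model was even. LM1 moved from -0.06 ± 0.83 (adjusted p = 0.96) to 1.69 ± 0.53 (adjusted p = 0.027) without HR1 replicate 1. LM9 gave -1.03 ± 0.83 (adjusted p = 0.34), and 0.71 ± 0.51 (adjusted p = 0.26) without it or -1.57 (adjusted p = 0.0408) without HR1 replicate 3. *Muc1*, a transmembrane mucin of the apical surface, stayed between 1.57 and 5.82 CPM and gave 0.50 ± 0.41 (adjusted p = 0.35), or 1.22 (adjusted p = 0.017), a call, without HR1 replicate 2.

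Between the 2 metastasis-derived models, LM9 against LM1, 1 of the 30 genes rose and 4 fell, where 22.0% of all genes were called (11.5% higher and 10.6% lower). The tumours of LM9 and LM1 did not overlap in 19 genes, 7 higher and 12 lower in LM9, where 63.0% of all genes did not overlap (31.9% higher and 31.1% lower). Without HR1 replicate 1 in the shared fit, 6 rose and 8 fell, where 45.5% of all genes were called (22.9% higher and 22.5% lower). HR1 tumours take no part in this difference, but they widen the spread that the shared fit estimates. With only the 6 LM tumours in the fit, an alternative added after seeing the data, 7 rose and 11 fell of the 28 that passed the filter there, where 56.3% of all genes were called (28.3% higher and 28.0% lower).

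**Figure D5:**
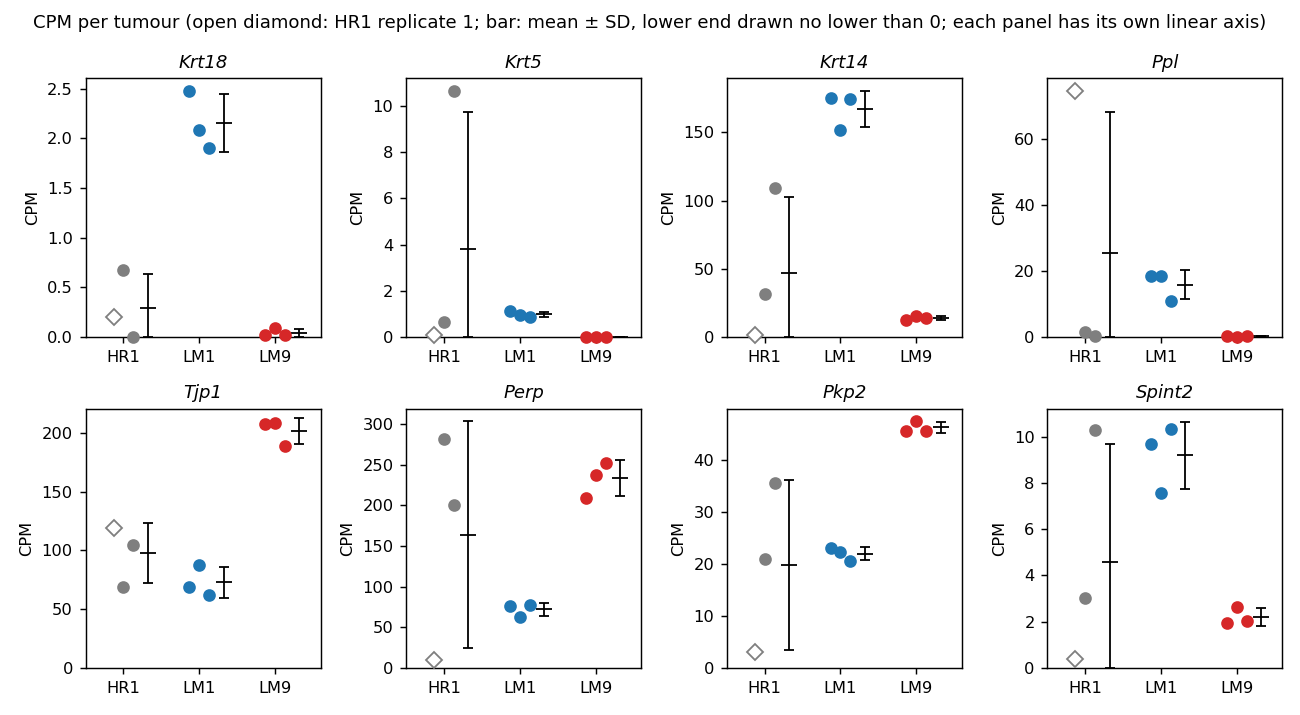
CPM of 8 genes in each tumour (points; open diamond, HR1 replicate 1) with the mean and SD of each model at its right (n = 3). LM1 and LM9 do not overlap in any of the 8, with *Krt18*, *Krt5*, *Krt14*, *Ppl* and *Spint2* lower and *Tjp1*, *Perp* and *Pkp2* higher in LM9.

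Of 5 keratins, 3 fell from LM1 to LM9 and none rose, where 10.6% of all genes fell and 11.5% rose. *Krt14* averaged 167 ± 13.2 CPM in LM1 and 13.9 ± 1.58 CPM in LM9 (mean ± s.d., n = 3), a log2 fold change of -3.59 ± 1.07 (adjusted p = 0.0429). The 6 LM tumours by themselves gave -3.60 ± 0.13 (adjusted p = 5.8e-09). *Krt18* averaged 2.16 ± 0.293 CPM in LM1 and 0.0452 ± 0.0402 CPM in LM9, with 285 and 6 reads in all, a log2 fold change of -5.50 ± 1.19 (adjusted p = 0.014). *Krt5* held 129 reads over LM1 and 1 over LM9, a ratio of 133 by counts (95% exact counting interval 23.4 to 5275), and was called (adjusted p = 0.04300). The *Krt14* and *Krt5* calls were lost on leaving out any of the LM tumours, and the *Krt18* call without LM1 replicate 1 or LM9 replicate 1 or 3, with adjusted p of up to 0.14, 0.14 and 0.071 (edgeR's quasi-likelihood test). *Krt19* and *Krt17* were not called, at -0.60 (adjusted p = 0.66) and -0.68 (adjusted p = 0.65).

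In the junctions the directions differed by gene. *Tjp1* averaged 72.8 ± 13.4 CPM in LM1 and 201 ± 11.1 CPM in LM9, a log2 fold change of 1.47 ± 0.22 (adjusted p = 0.0032). *Ppl* averaged 15.9 ± 4.397 CPM in LM1 and 0.256 ± 0.1597 CPM in LM9, at -5.93 ± 1.84 (adjusted p = 0.0499), a call lost on leaving out any of the LM tumours (adjusted p of up to 0.15). *Perp* averaged 71.97 ± 8.29 and 233 ± 22.2 CPM, and its log2 fold change of 1.70 ± 0.84 (adjusted p = 0.18) was called only in the fit of the 6 LM tumours and in that without HR1 replicate 1, at 1.69 (adjusted p = 8.9e-07) and 1.69 (adjusted p = 4.6e-05). *Pkp2* behaved in the same way, with 1.07 (adjusted p = 0.25) in the shared fit and 1.06 (adjusted p = 1.1e-05) over the 6 LM tumours.

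Among lineage and surface genes, *Lcn2* gave -1.72 (adjusted p = 0.0558), *Trp63* -1.03 (adjusted p = 0.0513) and *Spint2* -2.06 (adjusted p = 0.12) in the shared fit, past the threshold in no case, and over the 6 LM tumours alone these were -1.73 (adjusted p = 3.0e-05), -1.04 (adjusted p = 0.014) and -2.07 (adjusted p = 7.3e-06). *Cd24a* gave -0.97 (adjusted p = 0.43) and over the 6 LM tumours -0.98 (adjusted p = 2.3e-05). *Spint1* and *Epcam* gave 1.10 (adjusted p = 0.17) and 1.96 (adjusted p = 0.15) in the shared fit, with every LM9 tumour above every LM1 tumour, and over the 6 LM tumours 1.10 (adjusted p = 0.013) and 1.92 (adjusted p = 0.0090).

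Of 57 further keratin, junction, polarity and hemidesmosome genes, 34 were analysed. Of these, 10 rose and 3 fell in LM1 and LM9 against HR1, where 43.6% of all genes were called (19.9% higher and 23.6% lower). LM1 and LM9 singly, which share the HR1 tumours, gave the same counts. There 35.5% (16.7% higher and 18.7% lower) and 42.3% (20.4% higher and 21.9% lower) of all genes were called. Leaving out HR1 replicate 1, 12 rose and 8 fell in LM1 and LM9, 12 and 6 in LM1 and 13 and 9 in LM9, where 56.0%, 52.8% and 55.7% of all genes were called. Their median log2 fold change in LM1 and LM9 was 0.37, and 0.25 without it. *Mpzl2*, an epithelial adhesion protein, was at 0.133, 0.856 and 0.103 CPM in HR1 replicates 1 to 3, 7.08, 6.64 and 7.59 CPM in LM1 and 5.001, 3.34 and 4.03 CPM in LM9, a log2 fold change of 3.85 ± 0.68 (adjusted p = 0.0025). *Cldn2*, a channel-forming claudin, gave 3.37 ± 0.82 (adjusted p = 0.011) without passing 1.96 CPM. These were 3.47 (adjusted p = 8.8e-04) and 4.81 (adjusted p = 3.8e-04) without HR1 replicate 1, and *Mpzl2* gave 5.498 (adjusted p = 1.1e-04) without HR1 replicate 2 and *Cldn2* 2.78 (adjusted p = 0.0060) without HR1 replicate 3. *Itgb4*, the β4 integrin of hemidesmosomes, was at 3.62, 87.1 and 7.39 CPM in HR1 replicates 1 to 3, 2.52, 1.65 and 1.75 CPM in LM1 and 5.75, 5.95 and 5.401 CPM in LM9, with HR1 replicate 2 far above all others. Its log2 fold change was -3.28 ± 0.80 (adjusted p = 0.011), and -0.71 without HR1 replicate 2, which was not called (adjusted p = 0.10). In LM9 against LM1, 1 of the 34 rose and 1 fell, where 22.0% of all genes were called, and 3 rose and 4 fell without HR1 replicate 1, where 45.5% were.

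Of 15 luminal mammary genes 6 were analysed, with 1 higher and 1 lower in LM1 and LM9, where 43.6% of all genes were called, and 3 higher and 1 lower without HR1 replicate 1, where 56.0% were. *Areg*, the amphiregulin growth factor of luminal cells, was at 0.665, 3.38 and 5.94 CPM in HR1 replicates 1 to 3, 62.9, 45.2 and 37.9995 CPM in LM1 and 65.2, 79.3 and 74.2 CPM in LM9, and gave a log2 fold change of 4.15 ± 0.60 (adjusted p = 9.9e-04). *Tspan8*, a tetraspanin of luminal progenitors, was at 38.4, 191 and 141 CPM in HR1 replicates 1 to 3, 44.9, 36.6 and 52.7 CPM in LM1 and 5.67, 2.77 and 6.301 CPM in LM9, and gave -3.06 ± 0.43 (adjusted p = 9.1e-04). Of 11 basal and myoepithelial genes 10 were analysed, with 4 higher and 2 lower, both with and without that tumour, beside the same shares of all genes. *Acta2*, the smooth muscle actin of myoepithelium and of fibroblasts, was at 95.7, 606 and 327 CPM in HR1 replicates 1 to 3, 71.7, 60.9 and 69.5 CPM in LM1 and 0.966, 0.938 and 1.37 CPM in LM9. Every HR1 tumour was above every LM1 tumour and every LM1 tumour above every LM9 tumour, and the log2 fold change was -5.32 ± 0.47 (adjusted p = 1.1e-04). *Tagln*, another contractile gene, gave -3.93 (adjusted p = 0.0012). *Lgr5*, a Wnt target of stem-like basal cells, was at 0.0997, 0.113 and 0.0772 CPM in HR1 replicates 1 to 3, 7.48, 8.04 and 7.93 CPM in LM1 and 0.365, 0.137 and 0.428 CPM in LM9, and gave 3.97 ± 0.45 (adjusted p = 3.2e-04), with LM1 above all other tumours. *Areg*, *Tspan8*, *Acta2*, *Tagln* and *Lgr5* were called in the same direction without HR1 replicate 1, at 3.69, -3.48, -5.76, -4.39 and 3.99. Of these, *Acta2* and *Tagln* moved to -4.62 (adjusted p = 1.9e-04) and -3.03 (adjusted p = 0.0038) without HR1 replicate 2, and *Areg* to 4.84 (adjusted p = 8.6e-04) without HR1 replicate 3.

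Of the 10 repressors of epithelial genes, 3 rose and 2 fell in LM1 and LM9 against HR1, where 43.6% of all genes were called, and 5 rose and 2 fell without HR1 replicate 1, where 56.0% were. *Zeb1* gave 0.79 ± 0.24 (adjusted p = 0.028), at 108, 58.3 and 57.7 CPM in HR1, 96.9, 127 and 80.2 CPM in LM1 and 184, 168 and 146 CPM in LM9, and lost its call without HR1 replicate 2 or 3, LM1 replicate 1 or 2 or LM9 replicate 1 or 2 (adjusted p of up to 0.095). *Prrx1*, a homeobox factor of mesenchyme, gave 1.12 ± 0.23 (adjusted p = 0.0050). *Tcf4*, a class I helix-loop-helix factor, gave -1.19 ± 0.19 (adjusted p = 0.0014). Leaving out HR1 replicate 1, the 3 were called in the same direction, at 1.17, 1.02 and -0.94. *Twist2* was at 12.1, 7.83 and 4.99 CPM in HR1, 15.5, 12.7 and 15.2 CPM in LM1 and 0.773, 0.229 and 0.833 CPM in LM9, a log2 fold change of -4.56 ± 0.53 (adjusted p = 0.0014) in LM9 against LM1. *Twist1* and *Snai1*, the highest of the 10 per kb, gave -0.26 (adjusted p = 0.31) and 0.41 (adjusted p = 0.078) in LM1 and LM9 against HR1, and -0.34 (adjusted p = 0.18) and 0.52 (adjusted p = 0.028), a call, without HR1 replicate 1.

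Genes taken as markers of other cells also differed between these groups. Of 13 leukocyte markers, 9 fell in LM1 and LM9 against HR1, where 23.6% of all genes fell and 19.9% rose. Their summed level was 244 to 1121 CPM in HR1, highest in HR1 replicate 2, 189.7 to 215 CPM in LM1 and 188 to 231 CPM in LM9. The marker of all leukocytes, *Ptprc*, stayed between 2.29 and 11.3 CPM, and *Cd3e* and *Cd79a* were not analysed here. Of 10 fibroblast markers, 9 fell beside the same share of all genes (7 without HR1 replicate 1, where 28.5% of all genes fell), with summed levels of 23424 to 35254 CPM in HR1, 10404 to 13828 CPM in LM1 and 8976 to 10546 CPM in LM9. *Pdgfra*, a receptor of mesenchymal cells, was between 106 and 361 CPM in HR1 and between 40.2 and 102 CPM in the LM tumours.

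Of 7 endothelial markers, *Cdh5* and *Kdr* rose and 4 fell, where 19.9% of all genes rose and 23.6% fell, and *Pecam1* did not pass 6.42 CPM. Their summed level was 10.8 to 36.1 CPM in HR1, 166 to 229 CPM in LM1 and 261 to 297 CPM in LM9. Adipocyte and skin keratinocyte markers were each represented by 1 of 6 genes, which did not pass 8.78 and 5.10 CPM, and 3 of 6 skeletal muscle markers did not pass 7.65 CPM in sum, with *Acta1* at 6.84 CPM or less. *Adipoq* and *Krt1* were not analysed here. Whether these transcripts came from other cells or from the tumour cells themselves was not tested. Any part of other cells in the epithelial gene changes was not tested either.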

How the data were processed

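Sorted GFP+ cells from 9 tumours (3 each of HR1, LM1 and LM9) were sequenced by the authors as stranded TruSeq mRNA libraries with single 50-nt reads, aligned with STAR to mm10 and counted per gene over the union of exons with QuasR; the strand setting of the counting is not given in the sources used here. The deposited values are raw counts per Entrez gene for 14108 genes, and no gene listed has a third-highest count under 7. Of these, 14089 were given a symbol through the RefSeq gene table (GRCm38.p6). Totals were 32393958 to 46681945 counts per tumour.

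Counts were normalised by TMM (factors 0.928 to 1.05), filtered with filterByExpr (14086 genes kept) and fitted in 1 model of 3 groups with edgeR's robust quasi-likelihood test (edgeR 4.0.16, R 4.3.3), with Benjamini-Hochberg adjustment over all tested genes. The authors used limma-voom, which was run as an alternative (limma 3.58.1), beside DESeq2 1.42.0, other scalings and filters, a test against a 2-fold change, a replicate block, and each tumour left out. A fit of the 6 LM tumours was added after seeing the data. CPM values are TMM-scaled, and lengths are exon unions. Exact counting intervals at 95% (scipy 1.17.1) are given where a group held 1 to 3 reads. The scripts were tested on simulated data. All analysed members were named. From each list of other epithelial, lineage or repressor genes the 3 with the largest called change in LM1 and LM9 against HR1, at 1 CPM or more on average, were named, and of the lists of other cells *Ptprc*, *Pecam1*, *Pdgfra*, *Adipoq*, *Krt1*, *Acta1* and *Nfib*. The levels and changes of *Zeb1*, *Twist1*, *Snai1*, *S100a8*, *S100a9*, *Cdh5* and *Kdr* were singled out after their values were seen. Members and lists were chosen with earlier results of these data known.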

Additional observations from a re-analysis of the deposited data

Results flagged for a closer look

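The LM1 and LM9 models differed in 5 of the 30 genes by a direct test of the difference, where 22.0% of all genes were called. *Krt18* had a log2 fold change of -5.50 ± 1.19 (adjusted p = 0.014) in LM9 against LM1, *Krt5* of -6.56 ± 1.95 (adjusted p = 0.04300), a fitted value that rests on 1 read in LM9, and *Krt14* of -3.59 ± 1.07 (adjusted p = 0.0429). *Tjp1* had 1.47 ± 0.22 (adjusted p = 0.0032) and *Ppl* -5.93 ± 1.84 (adjusted p = 0.0499). In each of the 5 all 3 tumours of one model lay beyond all 3 of the second, as did 63.0% of all tested genes, and the fit of the 6 LM tumours gave the same direction and a call for each. *Krt18*, *Krt14*, *Krt5* and *Ppl* were not called in several alternatives, as given with the dependence on processing. Groups of 3 tumours are too small for a test of single outlying tumours.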

How the results depend on the processing

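Counts of called members moved most with the tumours used and with the size of change tested. Leaving out each tumour in turn, the members higher and lower numbered 4 to 8 and 5 to 8 in LM1 and LM9 against HR1, 3 to 11 and 2 to 7 in LM1, 5 to 10 and 3 to 11 in LM9, and 1 to 6 and 0 to 8 in LM9 against LM1. All genes called ranged over 4928 to 7902, 3121 to 7453, 3768 to 7862 and 1150 to 6413, and the further epithelial genes over 10 to 20, 10 to 18, 7 to 22 and 2 to 7. Counts more than 1.5 times above the reported ones came without HR1 replicate 1 or 3, and without replicate 2 in LM9 against LM1. The lowest came without an LM tumour: no member was called lower in LM9 than in LM1 without LM1 replicate 1, LM9 replicate 1 or LM9 replicate 3, though each such fit leaves fewer tumours, and 1150 to 1388 genes were called there.

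Without HR1 replicate 1 the direction turned, with a call before or after, for *Ppl* (1.13 in LM1 and LM9, 4.10 in LM1), *St14* (2.95 in LM1 and LM9, 2.48 in LM9) and *Cd24a* (1.69 in LM1), all log2 fold changes; no other alternative reversed a member with a call. Their ranges over the tumours left out were -4.22 to 1.13 and -1.26 to 4.10 for *Ppl*, -0.65 to 2.95 and -1.12 to 2.48 for *St14* and -0.59 to 1.69 for *Cd24a*. Across the tumours left out, calls in LM1 and LM9 against HR1 were kept by *Trp63*, *Jup*, *Cldn1*, *Epcam*, *Dsp*, *Elf3*, *Spint1* and *Lcn2*, with adjusted p (edgeR's quasi-likelihood test) of at most 0.046. At their highest, *Pkp1* reached 0.066 without LM1 replicate 2, *Foxa1* 0.11 without HR1 replicate 2, *Krt5* 0.081 without HR1 replicate 3 and *Ppl* 0.15 without HR1 replicate 1. In LM9 against LM1, *Tjp1* kept its call, at 0.023 or less, while *Krt18* reached 0.071, *Krt5* 0.14 and *Krt14* 0.14 without LM9 replicate 1 and *Ppl* 0.15 without LM9 replicate 3, and leaving out some of the other tumours also ended these calls.

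With limma-voom, 8 members were higher and 4 lower in LM1 and LM9, where edgeR gave 5 and 7. It also gave 8 higher in LM1, 4 lower in LM9 (7 with edgeR) and 2 higher in LM9 against LM1. Of all genes, limma-voom called 6083 in LM1 and LM9, 5076 in LM1, 5902 in LM9 and 3465 in LM9 against LM1. DESeq2 gave 8 higher in LM1 and 2 higher in LM9 against LM1. A filter of 1 CPM in 3 tumours, which tests fewer genes, left 3, 2 and 4 lower in LM1 and LM9, LM1 and LM9. Against a minimum log2 fold change of 1, 2 members were higher in each comparison with HR1 and 0 in LM9 against LM1, 1, 1, 1 and 0 were lower, 989, 782, 1083 and 271 of all genes were called, and 6, 5, 5 and 1 further epithelial genes. The 6 LM tumours fitted by themselves gave 7 members higher and 11 lower in LM9, 7709 genes and 15 further epithelial genes. Other counts stayed within 1.5 times the reported ones, including those with other scalings and with no filter, where no member lost a call.

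The replicate numbers do not pair the tumours: deviations of same-numbered tumours correlated at -0.106 to 0.342, and 2 of 9 pairs passed 0.1. With a replicate block, 5 members were higher and 5 lower in LM1 and LM9, 5 and 3 in LM1, 5 and 4 in LM9 (7 lower without it) and 1 and 3 in LM9 against LM1.

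With 3 tumours a model, and 10 members averaging under 1 CPM, changes in *Cdh1*, *Grhl2*, *Evpl* and *Krt17* rest on few reads. Counts of 50-base reads cannot fully separate *Krt14*, *Krt16* and *Krt17*, *Krt5* and *Krt6a*, or *Cd24a* and its pseudogene copy. Each model is 1 line, so that a difference between models is a difference between these lines.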
